A study of Homo sapiens with 6 samples.

Results

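SPARC and 9 other non-collagen genes of bone matrix were followed in 143B cells, a human osteosarcoma line, after transfection of a siRNA against SIGLEC15 or of a negative control siRNA. The genes were taken from the deposited gene table by symbol: SPARC, SPP1, IBSP, BGLAP, ALPL, MGP, POSTN, FN1, TNC and BGN, all 10 of them found, each once, among 58825 genes. All cells were grown with 10% serum and received siRNA at 80 nmol/L for 36 h. There were 3 SIGLEC15 siRNA libraries and 3 control siRNA libraries of poly(A) RNA. Whether the 3 libraries within a group are separate cultures is not stated in the labels. The p-values therefore refer to variation among the sequenced libraries, and that variation could be technical alone. 143B is a RAS-transformed derivative of an older osteosarcoma line, and a single line cannot stand for osteosarcoma in general.

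Bone matrix is collagen type I filled with mineral and with a smaller set of non-collagen proteins. SPARC (osteonectin) binds collagen and calcium. The acidic proteins osteopontin (SPP1) and bone sialoprotein (IBSP) bind mineral and integrins, and osteocalcin (BGLAP) and matrix Gla protein (MGP) bind mineral or hinder its growth after vitamin K-dependent carboxylation. ALPL, tissue-nonspecific alkaline phosphatase, removes the mineralisation inhibitor pyrophosphate. Fibronectin (FN1), tenascin-C (TNC) and periostin (POSTN) are adhesive or anti-adhesive glycoproteins, and biglycan (BGN) is a small leucine-rich proteoglycan. IBSP, BGLAP and ALPL are used as markers of osteoblast maturation.

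SPARC rose 1.75-fold in the SIGLEC15 siRNA libraries and was the only one of the 10 genes past the threshold. BGN was 1.39-fold lower and FN1 1.32-fold higher, with no overlap between the groups in either, but neither passed. SPP1 was 1.17-fold lower, again without overlap and without passing. TNC overlapped between the groups, and IBSP, BGLAP, ALPL, MGP and POSTN were at or near the detection limit. A gene is called past the threshold here at an edgeR quasi-likelihood test with a Benjamini-Hochberg adjusted p under 0.05 over all tested genes, and 4.65% of the 18910 genes tested were called. Of the 10 genes 7 passed the filter on low counts and were tested, and edgeR called 1 of them higher (2.22% of all tested genes were called higher) and 0 lower (2.43% were called lower). Of the genes that were lower, BGN and SPP1 had an unadjusted p under 0.05 with edgeR, as 3610 of the 18910 tested genes did. Both passed with DESeq2, which called 2917 of the 18910 genes. SPP1 passed in no other alternative fit. In bulk RNA, more cells that express a gene and more RNA per cell cannot be told apart.

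The sequences upstream of SPARC and BGN are shown because these were the members with the smallest p in each direction. Each is the RefSeq promoter on GRCh38.p14, from 250 bases before to 50 after the annotated start, written 5′ to 3′ on the strand of the gene. Capitals mark each match of GGAGG or TATAA on either strand (CCTCC or TTATA when read on the gene strand), and neighbouring matches may overlap. SPARC lies at chr5:151686866-151687165 on the minus strand and BGN at chrX:153494730-153495029 on the plus strand.
SPARC: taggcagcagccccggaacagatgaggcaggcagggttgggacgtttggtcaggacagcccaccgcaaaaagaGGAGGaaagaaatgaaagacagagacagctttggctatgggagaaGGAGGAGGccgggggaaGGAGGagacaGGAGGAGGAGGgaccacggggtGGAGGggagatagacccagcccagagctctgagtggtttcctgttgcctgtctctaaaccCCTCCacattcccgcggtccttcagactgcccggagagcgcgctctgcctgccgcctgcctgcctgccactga
BGN: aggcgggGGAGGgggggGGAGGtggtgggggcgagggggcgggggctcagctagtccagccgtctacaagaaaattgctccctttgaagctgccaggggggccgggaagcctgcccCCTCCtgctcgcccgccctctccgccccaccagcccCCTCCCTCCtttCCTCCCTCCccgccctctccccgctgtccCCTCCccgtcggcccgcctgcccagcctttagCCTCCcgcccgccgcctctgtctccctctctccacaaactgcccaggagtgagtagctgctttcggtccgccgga

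Both windows held 9 matches of GGAGG and none of TATAA. Matches of GGAGG were found in 77.4% of the 35116 promoter windows of the same length, with a median of 2 per window, and 1.59% of windows held 9 or more. These windows were not matched for G and C, which made up 61.3% of the SPARC window and 71.7% of the BGN window. No other motif was counted, so the share does not show enrichment. TATAA was found in 20.4% of windows. The windows of FN1, TNC and BGLAP each held 1 match of TATAA, and the window of SPP1 held none with 5 of GGAGG. Most matches in the SPARC window read GGAGG on the gene strand, and most in the BGN window read CCTCC. Any link of these motifs to the RNA differences was not tested. The matches are letters in a window and not binding sites.

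The libraries held between 57966691 and 67655254 gene counts. SIGLEC15 itself had 12, 8 and 6 counts in SIGLEC15 siRNA replicates 1, 2 and 3, against 12, 10 and 22 in control replicates 1, 2 and 3 (log2 fold change -0.82, SE 0.598, edgeR adjusted p = 0.529), so a lower level of the target was not detectable at this depth. On the second principal component of log2 CPM, SIGLEC15 siRNA replicate 1 (35.31) and control replicate 3 (56.32) stood away from the remaining 4 (-27.15 to -20.36). Markers fixed for the osteoblast lineage summed to 44.5 to 84.3 CPM in the SIGLEC15 siRNA libraries and to 34.9 to 52.1 CPM in the control libraries. Within that list COL1A1 was read in every library, while COL1A2 had at most 12 counts in any library. Endothelial, adipocyte and chondrocyte markers each summed to at most 2.23 CPM, macrophage and osteoclast markers to at most 3.39 CPM, and PTPRC, which defines leukocytes, had no count. Epithelial markers summed to 8.76 to 11.3 CPM in the SIGLEC15 siRNA libraries and 11.8 to 13.3 CPM in the control libraries, nearly all from EPCAM. The part of these markers in the results was not tested.

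Levels between genes are compared per length, as the authors' FPKM. SPARC stood first in each of the 6 libraries, with 109, 111 and 108 FPKM in SIGLEC15 siRNA replicates 1 to 3 and 64.4, 62.6 and 60.8 FPKM in control replicates 1 to 3. Its mean over all libraries was above that of 97.8% of the tested genes. FN1 and SPP1 followed, and their order differed between the groups. FN1 was read at 14.5, 17.7 and 14.7 FPKM and SPP1 at 12.4, 14.2 and 14.0 FPKM in the SIGLEC15 siRNA libraries, so that FN1 was above SPP1 in each of them. In the control libraries FN1 was at 14.4, 11.5 and 9.71 FPKM and SPP1 at 16.1, 16.0 and 15.3 FPKM, the reverse order in each library. Taken over all 6 libraries the FPKM ranges of FN1 and SPP1 overlapped. Their order depends on the gene lengths used for the FPKM. In control replicate 1 counts and FPKM together imply 20422 bases for FN1 and 2755 bases for SPP1. Without scaling by length FN1 was above SPP1 in every library, with control means of 243 and 43.7 CPM. BGN came next, at 5.55 to 6.56 FPKM in the SIGLEC15 siRNA libraries and 7.75 to 9.03 FPKM in the control libraries. TNC was below BGN in every library, at 3.15 to 4.57 FPKM against 3.61 to 4.97 FPKM in the control libraries. The remaining 5 genes did not exceed 0.206 FPKM in any library.

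**Figure D1:**
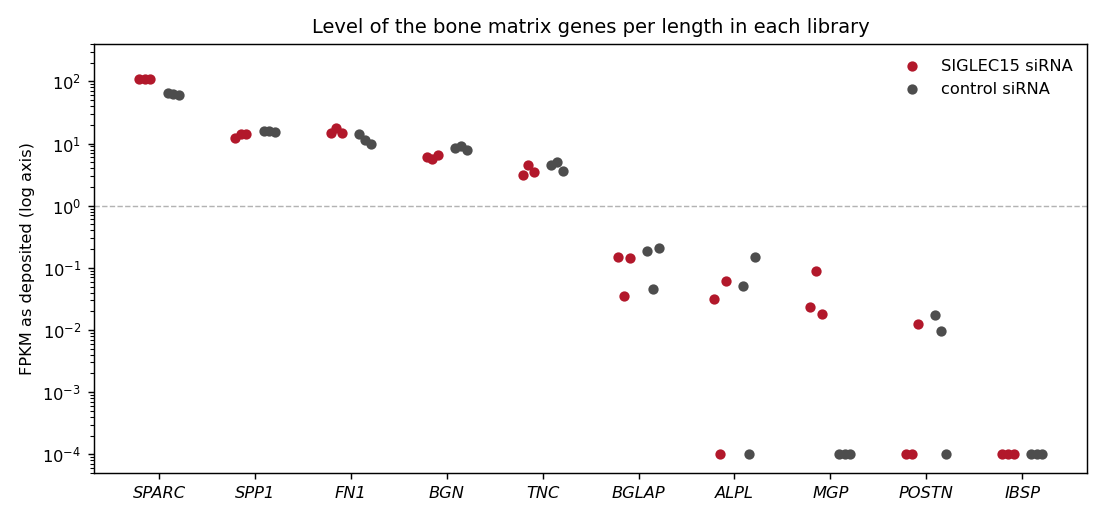
Deposited FPKM (log axis) of the 10 bone matrix genes in each library, SIGLEC15 siRNA in red at the left of each pair and control siRNA in grey at the right. Points at 0.0001 are the value the authors deposited for a gene without counts; the dashed line marks 1 FPKM, above which 5 genes lie in all 6 libraries.

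SPARC (ENSG00000113140, chromosome 5, 151661096 to 151686975, minus strand in the deposited table) had 40478, 35446 and 40080 counts in SIGLEC15 siRNA replicates 1, 2 and 3, against 21836, 20395 and 20802 counts in control replicates 1, 2 and 3. Scaled to library size this was 613, 602 and 598 CPM in the SIGLEC15 siRNA libraries and 353, 345 and 340 CPM in the control libraries. The lowest SIGLEC15 siRNA library was far above the highest control library, and the spread inside each group was small, with a coefficient of variation of 1.27% in the SIGLEC15 siRNA libraries and 1.83% in the control libraries. The group means were 604 ± 7.68 CPM in SIGLEC15 siRNA cells and 346 ± 6.34 CPM in control cells (SD, n = 3 each). This gave a log2 fold change of 0.80 with a 95% interval of 0.68 to 0.92 (SE 0.0503, edgeR adjusted p = 0.00137). Among all tested genes SPARC had the 17th smallest p. The antisense gene CLMAT3 overlaps SPARC by 10031 bases and had at most 4 counts in any library.

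**Figure D2:**
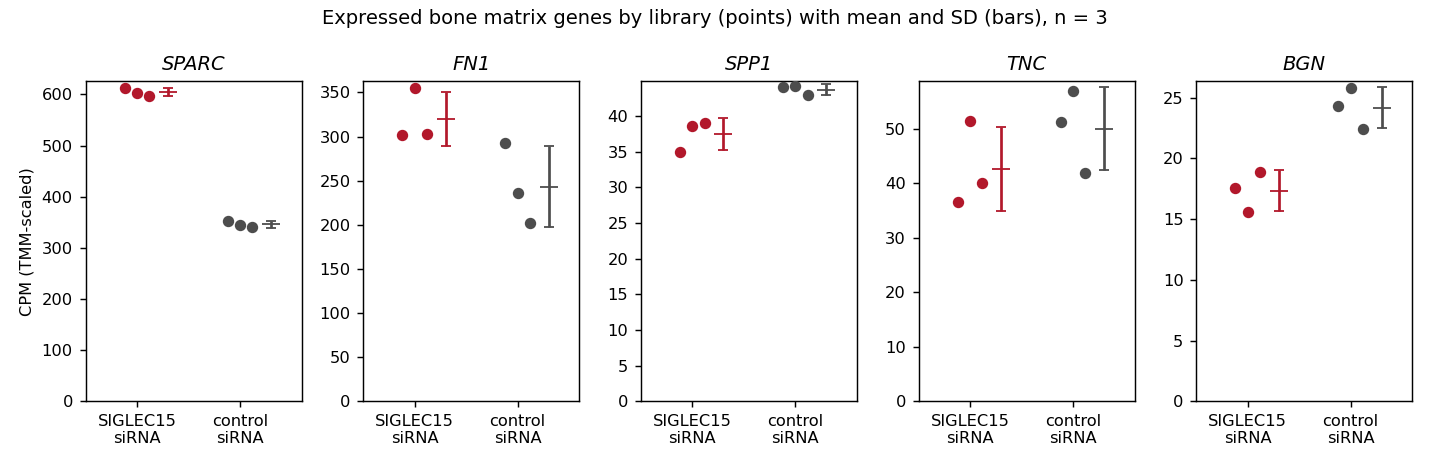
CPM of the 5 expressed bone matrix genes in each library (points), with the group mean and SD (bars, n = 3), SIGLEC15 siRNA in red at the left and control siRNA in grey at the right; each panel has its own axis from 0. SPARC shows the widest gap relative to its spread, with 598 to 613 CPM in SIGLEC15 siRNA cells and 340 to 353 CPM in control cells.

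The rise of SPARC was large for a gene of its abundance. Of the 413 tested genes with a mean FPKM at or above that of SPARC, 21 were called, and 1 besides SPARC had a log2 fold change at least as high. That gene, named after its values were seen, was BANF1, which encodes a chromatin-binding protein of the nuclear envelope, whose log2 fold change was 0.97 (SE 0.204, edgeR adjusted p = 0.0498). SPARC made up 61.0%, 56.6% and 59.8% of the summed counts of the 10 genes in SIGLEC15 siRNA replicates 1 to 3, against 46.1%, 48.7% and 52.3% in control replicates 1 to 3. The 10 genes together came to 999 to 1063 CPM in the SIGLEC15 siRNA libraries and 650 to 765 CPM in the control libraries. Relative to SPP1, SPARC stood 7.67 to 8.79 times higher in FPKM in the SIGLEC15 siRNA libraries and 3.91 to 4.01 times higher in the control libraries.

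The adhesive glycoproteins FN1 and TNC leaned in opposite directions, and neither passed. FN1 (ENSG00000115414, chromosome 2, 215360440 to 215436073, minus strand) had 302, 355 and 302 CPM in SIGLEC15 siRNA replicates 1 to 3, against 292, 236 and 202 CPM in control replicates 1 to 3. The groups did not overlap, but control replicate 1 came close to the SIGLEC15 siRNA libraries. Mean levels were 320 ± 30.4 CPM in SIGLEC15 siRNA cells and 243 ± 45.8 CPM in control cells (SD, n = 3 each; log2 fold change 0.40, SE 0.143, 95% interval 0.06 to 0.74, edgeR adjusted p = 0.194). FN1 passed in 1 of 14 alternatives, with DESeq2 (adjusted p = 0.0201). TNC (ENSG00000041982, chromosome 9, 115019575 to 115118257, minus strand) had 36.6, 51.4 and 40.1 CPM in the SIGLEC15 siRNA libraries, against 51.3, 57.0 and 41.9 CPM in the control libraries. Its groups overlapped, since SIGLEC15 siRNA replicate 2 lay above 2 of the 3 control libraries (log2 fold change -0.23, SE 0.164, 95% interval -0.62 to 0.16, edgeR adjusted p = 0.52). DEC1, on the other strand, overlaps TNC by 98683 bases and had no count in any library. POSTN, the third adhesive glycoprotein followed, had 0, 0 and 6 counts in the SIGLEC15 siRNA libraries. It had 8, 4 and 0 counts in the control libraries and was not tested.

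BGN (ENSG00000182492, chromosome X, 153494980 to 153509546, plus strand) had 17.6, 15.6 and 18.9 CPM in SIGLEC15 siRNA replicates 1 to 3, against 24.3, 25.8 and 22.5 CPM in control replicates 1 to 3. All 3 SIGLEC15 siRNA libraries were below all 3 control libraries. Its log2 fold change was -0.48 (SE 0.112, 95% interval -0.75 to -0.21, edgeR adjusted p = 0.0667), just outside the threshold. It passed in 4 of 14 alternatives: DESeq2 (adjusted p = 0.000505), a mean FPKM of at least 5 (0.0311) and limma-trend on FPKM with a pseudocount of 1 or 0.1 (0.0352 and 0.0357). HAUS7, a subunit of a spindle microtubule complex, overlaps it by 537 bases on the other strand. Whether the counting used strand is not stated, so reads of the overlap cannot be told apart. HAUS7 had 1459, 780 and 885 counts in the SIGLEC15 siRNA libraries and 822, 1197 and 1250 counts in the control libraries and was not called (edgeR adjusted p = 0.819).

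Of the 2 acidic integrin-binding proteins only SPP1 was expressed. SPP1 (ENSG00000118785, chromosome 4, 87975650 to 87983426, plus strand) had 34.9, 38.6 and 39.0 CPM in SIGLEC15 siRNA replicates 1 to 3, against 44.0, 44.2 and 42.9 CPM in control replicates 1 to 3. The groups stood apart, with the SIGLEC15 siRNA libraries lower, and the difference was small (log2 fold change -0.22, SE 0.0784, 95% interval -0.41 to -0.03, edgeR adjusted p = 0.187). It passed in 1 of 14 alternatives, with DESeq2 (adjusted p = 0.0395). IBSP, its neighbour on chromosome 4, had no count in any of the 6 libraries, and 3 counts, taken as the limit that a count of 0 allows, correspond to 0.0447 to 0.0509 CPM.

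The vitamin K-dependent proteins and the mineralisation enzyme were near the detection limit. BGLAP had 12, 3 and 12 counts in SIGLEC15 siRNA replicates 1 to 3, against 14, 4 and 15 counts in control replicates 1 to 3. These counts are uncertain, because BGLAP lies wholly within the read-through gene PMF1-BGLAP on the same strand, which had 726, 370 and 582 counts in the SIGLEC15 siRNA libraries and 841, 973 and 460 counts in the control libraries and was not called (edgeR adjusted p = 0.44). ALPL had 8, 0 and 15 counts in the SIGLEC15 siRNA libraries and 12, 0 and 34 counts in the control libraries, overlapping ranges with a library at 0 in each group. Neither difference was detectable at this depth, with 95% intervals of the log2 fold change of -2.20 to 1.45 for BGLAP and -4.56 to 2.38 for ALPL (edgeR adjusted p = 0.852 and 0.762).

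MGP had 5, 18 and 4 counts in SIGLEC15 siRNA replicates 1 to 3 and no count in the 3 control libraries. The SIGLEC15 siRNA mean was 2.97-fold a floor of 3 counts per control library, most of it from replicate 2, and 1.37-fold without that library. These ratios leave out the counting error of the SIGLEC15 siRNA counts, so they are not lower bounds. The gene did not pass the filter on low counts and was not tested. It lies inside C12orf60, a gene on the other strand with 200, 183 and 187 counts in the SIGLEC15 siRNA libraries and 247, 259 and 271 counts in the control libraries. Whether the counting used strand is not stated, so reads of this overlap cannot be told apart either.

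**Figure D3:**
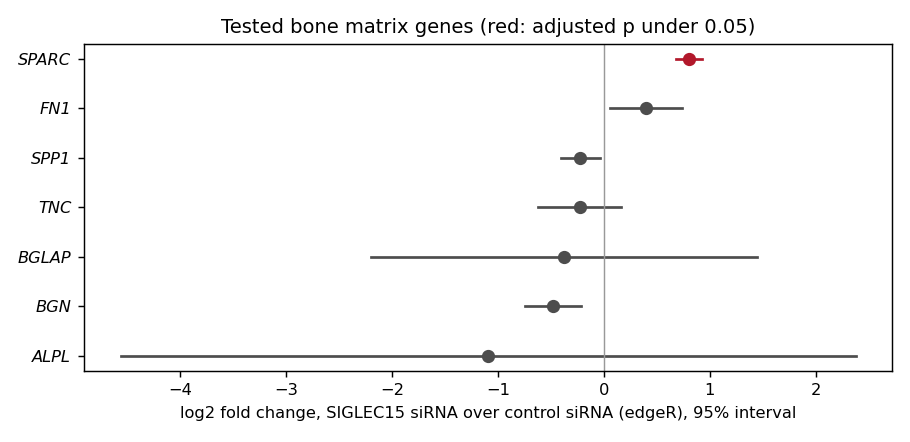
Log2 fold change of SIGLEC15 siRNA over control siRNA cells for the 7 tested bone matrix genes, with the 95% interval of the edgeR fit (n = 3 libraries per group). SPARC, in red, at 0.80 was the one gene with an adjusted p under 0.05; the intervals of BGLAP and ALPL, read at under 1 CPM, run over several log2 units.

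Among the 7 tested genes 4 had groups that did not overlap, SPARC and FN1 higher and SPP1 and BGN lower, where 26.6% of all tested genes had such groups, and 31.5% of those with a mean FPKM of at least 1. The same 4 genes had an unadjusted p under 0.05, as 3610 of the 18910 tested genes did. The median log2 fold change of the 7 was -0.23, beside -0.01 over all tested genes. Of the 5 genes with a mean FPKM of at least 1, 1 was called, where 6.54% of all genes at that level were. Across the 6 libraries the log2 CPM of SPARC correlated with that of FN1 at r = 0.78, SPP1 at r = -0.91, BGN at r = -0.92 and TNC at r = -0.51. These values describe 6 libraries in 2 groups and hold the difference between the groups.

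**Figure D4:**
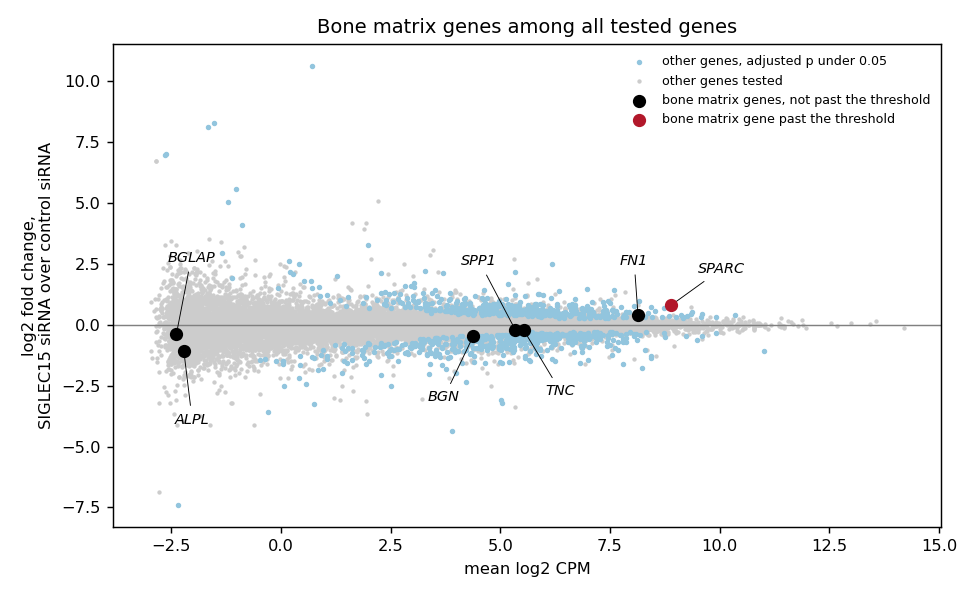
Log2 fold change (SIGLEC15 siRNA over control siRNA) against mean log2 CPM for all 18910 tested genes, with the 7 tested bone matrix genes marked. SPARC, in red, lies above nearly all genes of its abundance, while SPP1, TNC, BGN and FN1 lie nearer to 0.

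The 5 genes whose log2 CPM over the 6 libraries was most like that of SPARC, by Pearson correlation among tested genes with a symbol, were SEMA6B, SLC2A3, PCDH7, SH3RF2 and SNORA58B, with r between 0.9969 and 0.9984. Since SPARC separates the groups, the choice by correlation fixes that these genes are higher in the SIGLEC15 siRNA libraries, and their values are a description. SLC2A3, a glucose transporter, was at 82.3 CPM in SIGLEC15 siRNA cells and 34.7 CPM in control cells (log2 fold change 1.25), and SEMA6B, a semaphorin, at 28.1 CPM in SIGLEC15 siRNA cells and 18.9 CPM in control cells (log2 fold change 0.57).

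Related genes were taken as 4 lists of 76 genes, of which 51 were tested: other matricellular proteins and SPARC relatives, small leucine-rich proteoglycans, receptors of bone matrix proteins, and genes of mineralisation and matrix modification. Of the 51, 5 rose, 2 fell and 44 did not pass, which is 13.7% called beside 4.65% of all tested genes. The lists were chosen with earlier results in view, CCN1 and CCN2 among them, so this share is a description.

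Of 15 tested matricellular genes and SPARC relatives 2 rose and 2 fell (median log2 fold change 0.22). That is 26.7% called beside 4.65% of all tested genes, in a list chosen with CCN1 and CCN2 in view. THBS1, thrombospondin-1, an adhesive glycoprotein that can activate TGF-beta, had 206, 220 and 249 CPM in SIGLEC15 siRNA replicates 1 to 3, against 156, 161 and 142 CPM in control replicates 1 to 3, and rose 1.47-fold (edgeR adjusted p = 0.022). TGFBI, a TGF-beta-induced adhesion protein and the closest relative of periostin, had 821, 768 and 748 CPM in the SIGLEC15 siRNA libraries, against 529, 628 and 473 CPM in the control libraries, and rose 1.43-fold (edgeR adjusted p = 0.048). CCN2 and CCN1, matricellular growth regulators, fell 3.06-fold and 1.53-fold (edgeR adjusted p = 0.00539 and 0.0123). CCN2 had 105, 91.2 and 135 CPM in SIGLEC15 siRNA replicates 1 to 3, against 295, 382 and 335 CPM in control replicates 1 to 3. CCN1 had 195 to 232 CPM in the SIGLEC15 siRNA libraries, against 323 to 342 CPM in the control libraries. CCN3, of the same family, leaned higher and did not pass (log2 fold change 0.65, SE 0.224, edgeR adjusted p = 0.178), although it passed with DESeq2. Among SPARC relatives, FSTL1 had 672 to 684 CPM in SIGLEC15 siRNA cells and 566 to 609 CPM in control cells and did not pass (log2 fold change 0.22, SE 0.054, edgeR adjusted p = 0.077). SPOCK1 did not pass either (log2 fold change 0.24, SE 0.0752, edgeR adjusted p = 0.15), and SPARCL1 and SMOC2 had no count. No SPARC relative was called by edgeR, while FSTL1 and SPOCK1 passed with DESeq2 (adjusted p = 0.000215 and 0.0151).

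Of the family of BGN, the other small leucine-rich proteoglycans in the list were nearly silent. Of 12 genes 8 had no count in any library, decorin (DCN) and lumican (LUM) among them. Only ECM2 was tested, at 0 to 0.151 CPM in SIGLEC15 siRNA cells and 0.203 to 0.662 CPM in control cells, and it did not pass (edgeR adjusted p = 0.301).

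Of 14 tested receptors 1 rose and none fell (median log2 fold change 0.12). That is 7.14% called, near the 6.54% of all genes with a mean FPKM of at least 1. ITGAV, the alpha-V integrin chain that pairs with several beta chains to bind SPP1, FN1 and POSTN, had 135, 178 and 165 CPM in SIGLEC15 siRNA replicates 1 to 3, against 106, 104 and 91.8 CPM in control replicates 1 to 3, and rose 1.58-fold (SE 0.117 on the log2 scale, edgeR adjusted p = 0.0294). All 3 SIGLEC15 siRNA libraries were above the control libraries. ITGA4, a chain of fibronectin and osteopontin receptors, did not pass (log2 fold change 0.43, SE 0.0981, edgeR adjusted p = 0.0635), although it passed with DESeq2 (adjusted p = 0.000262), nor did CD44, a receptor of hyaluronan and osteopontin (log2 fold change -0.10, SE 0.0721, edgeR adjusted p = 0.525).

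Of 21 tested genes of mineralisation and matrix modification 2 rose and none fell (median log2 fold change 0.09). That is 9.52% called, beside 6.54% of all genes with a mean FPKM of at least 1. FURIN, a protease that matures many secreted precursors, had 134, 130 and 116 CPM in SIGLEC15 siRNA replicates 1 to 3, against 71.0, 66.9 and 74.9 CPM in control replicates 1 to 3, and rose 1.79-fold (SE 0.0807 on the log2 scale, edgeR adjusted p = 0.00478). LOXL2, a lysyl oxidase that cross-links collagen, had 185, 184 and 194 CPM in the SIGLEC15 siRNA libraries, against 150, 149 and 151 CPM in the control libraries, and rose 1.25-fold (edgeR adjusted p = 0.0242). COL1A1, a chain of collagen type I, stood in the osteoblast marker list and rose 1.62-fold (edgeR adjusted p = 0.0134). COL1A1 had 21.2, 21.3 and 20.1 CPM in SIGLEC15 siRNA replicates 1 to 3, against 12.2, 13.7 and 12.9 CPM in control replicates 1 to 3.

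**Figure D5:**
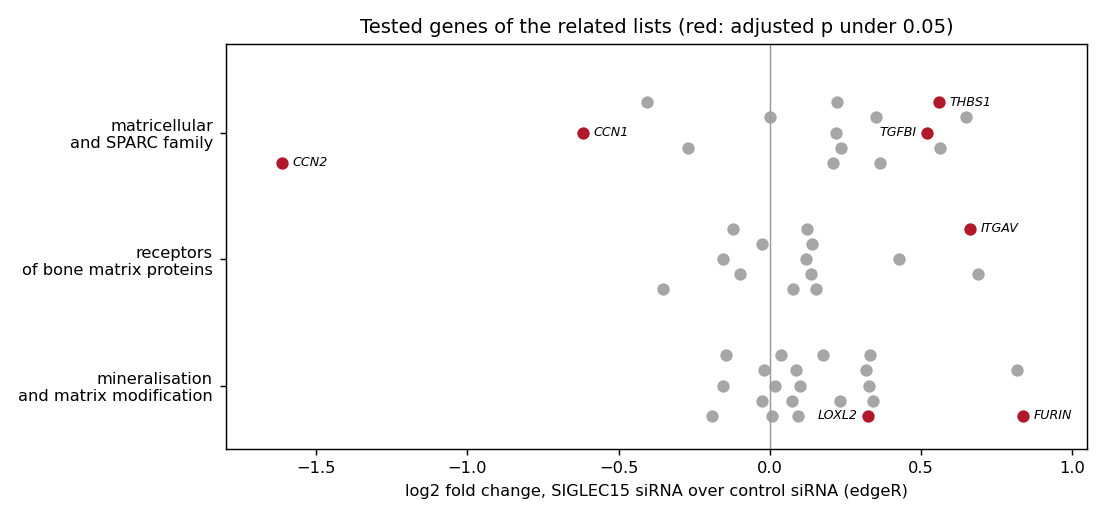
Log2 fold change (SIGLEC15 siRNA over control siRNA) of the tested genes of 3 related lists, one point per gene, spread vertically only for legibility; red points have an edgeR adjusted p under 0.05. CCN2 and CCN1 lie on the lower side and THBS1, TGFBI, ITGAV, LOXL2 and FURIN on the higher side.

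Without a single library these calls varied. CCN2 and FURIN stayed past the threshold whichever library was left out, but not without control replicate 3 and SIGLEC15 siRNA replicate 1 together (edgeR adjusted p = 0.0921 for CCN2 and 0.0646 for FURIN). SPARC stayed past it in these fits and without both libraries (edgeR adjusted p = 0.0421). CCN1 lost its call without control replicate 2. THBS1 and ITGAV were called without SIGLEC15 siRNA replicate 1 and lost their calls when any other single library was left out. TGFBI was called only without control replicate 2, and LOXL2 lost its call whichever library was left out. COL1A1 was called without SIGLEC15 siRNA replicate 1 or 3 and lost its call when any other single library was left out (edgeR adjusted p up to 0.0664). BANF1 was called only without SIGLEC15 siRNA replicate 3 (edgeR adjusted p up to 0.163 without another library).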

How the data were processed

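Counts and FPKM for 58825 genes were deposited by the authors as 2 columns per library, per the file headers: whole-number counts, and FPKM in which a gene without counts is listed at 0.0001. HISAT, StringTie and edgeR appear in the submitters' processing notes without version or role; the build and any use of strand are not stated there. Coordinates are the table's own, and 58552 of its IDs are in GENCODE 29 (GRCh38), 81.2% of them with the same start and end; of the 10 genes 3 have the same start and end there.

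Differences were tested on the counts by edgeR's quasi-likelihood test (version 4.0.16, R 4.3.3) over all 6 libraries with no covariate. Genes were kept by filterByExpr with a minimum count of 10 and a minimum total of 15, and libraries were scaled by TMM, with Benjamini-Hochberg adjustment over all tested genes. CPM use TMM-scaled library sizes; a standard error is the log2 fold change over the square root of F. Floors of 3 counts cover counting error only. The test was also run on simulated counts. Their spread was set to the average for a gene's abundance, so outlying libraries were not simulated. The ratio of counts to FPKM moved by -0.0956% at most between the groups in the 5 expressed genes. All library pairs differed by more than counting noise (chi-square per degree of freedom 55.5 to 110).

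The 10 genes, the 4 lists and the markers were chosen with earlier results of these data known. Named were the 10 genes, SIGLEC15, every called list gene (or the one of smallest p), the 5 genes most like SPARC and overlapping genes; other genes were named after their values were seen. SP7, an osteoblast marker, is not analysed here. RefSeq promoters were matched for 9 of the 10 genes. Alternatives were DESeq2 1.42.0, limma-trend (limma 3.58.1) on log2(FPKM + 1) and log2(FPKM + 0.1), median-of-ratios scaling, 2 filters, the replicate block and each library left out.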

Additional observations from a re-analysis of the deposited data

How the results depend on the processing

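SPARC kept its direction and its call in all 14 alternatives, with log2 fold changes of 0.78 to 0.82 and adjusted p up to 0.0449, the value with the replicate block. The number of bone matrix genes called was 1 in the fit reported; it was 4 with DESeq2 (SPARC, SPP1, FN1, BGN) and 2 (SPARC, BGN) when the filter was 5 FPKM on average and by limma-trend at either pseudocount, and 1 to 1 over the fits without 1 library. The number of changed genes was 879 of 18910 tested, and 2917 of 18910 with DESeq2. With the filter of 5 FPKM it was 689 of 6403. By limma-trend it was 961 and 950 of 12032 at pseudocounts of 1 and 0.1. These settings thus called a larger share of all genes than the fit reported. The number was 50 with the replicate block, and 260 to 431 over the fits without 1 library. The number of related list genes called was 7, and 12 with DESeq2, 0 with the replicate block and 3 to 5 without 1 library. Without control replicate 3 and SIGLEC15 siRNA replicate 1 together, a choice made after seeing the data, 70 genes changed, SPARC was the only bone matrix gene called and 0 related genes were. The causes were not tested, and fits on fewer libraries have less to estimate the spread from. Deviations from the group means were nearly uncorrelated between libraries that share a number (-0.0489, 0.0111 and -0.0626). These correlations over all genes show no pairing, but cannot tell whether libraries with the same number were handled together. At under 35 counts per library, the log2 fold change of ALPL ran from -1.98 (without SIGLEC15 siRNA replicate 3) to 0.24 (without control replicate 3), and was 0.21 without both libraries named above. That of BGLAP ran from -0.77 (without control replicate 2) to 0.0035 (without SIGLEC15 siRNA replicate 2). Depth limits IBSP, MGP, POSTN, ALPL and BGLAP.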

Other observations

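Some genes of the related and marker lists had single libraries far from their group, seen after the values were examined. RUNX2, the master transcription factor of osteoblasts, had 1328, 212 and 1006 counts in SIGLEC15 siRNA replicates 1 to 3, against 212, 212 and 162 counts in control replicates 1 to 3. SIGLEC15 siRNA replicate 2 thus had the same count as control replicates 1 and 2, and the gene did not pass (log2 fold change 2.00, SE 0.571, edgeR adjusted p = 0.113). DDR2, a collagen receptor of mesenchymal cells, had 38.6, 121 and 125 CPM in SIGLEC15 siRNA replicates 1 to 3, against 52.1, 159 and 152 CPM in control replicates 1 to 3, so that replicate 1 was low in both groups. VKORC1, the vitamin K reductase on which carboxylation of BGLAP and MGP depends, had 38.3, 34.7 and 34.7 CPM in the SIGLEC15 siRNA libraries, against 14.9, 31.3 and 39.4 CPM in the control libraries.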
